A study of Mus musculus with 26 samples.

Results

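The genes described here are 73 protein-coding genes of the mouse solute carrier superfamily, the Slc genes, measured in unfertilised oocytes and 1-cell embryos. They were chosen by level alone: a symbol that starts with Slc in the GENCODE vM21 annotation and a mean of at least 20 CPM (a gene's count as a share of its library's total, scaled so that every library sums to 1000000) over all 26 libraries. Of 385 protein-coding Slc genes, 366 had a count in some library, 290 of those stayed under the threshold and 19 had no count. Slc3a2, Slc7a11 and Slc16a1 were left out by the rule. The members just inside the threshold were Slc25a3 (mean 21.5 CPM), Slc25a4 (21.1) and Slc15a5 (20.8), and the genes just outside it were Slc38a9, Slc12a9 and Slco4a1 (19.4 each). Because the mean runs over all libraries, a gene can pass through the groups in which it is high: 58 of the 73 had a group mean of at least 20 CPM in all 5 groups, and 15 were below it in at least 1 group. All 73 passed the filter on low counts in every test.

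RNA was sequenced from metaphase II (MII) oocytes of strain B6D2F1, the eggs arrested in the second meiotic division, and from 1-cell embryos made by in vitro fertilisation with B6D2F1 on both sides, the oocytes coming from superovulated females of 8 weeks. The study asked which transcripts change in the first hours after fertilisation and how they respond when c-Myc or RNA polymerase II is inhibited. The titles number 2 series of libraries. The first series holds 7 untreated control libraries and 7 libraries of embryos given a small molecule of the thiazolidinone class that keeps c-Myc from its partner Max, from 2 h after sperm and oocytes were mixed and for 10 h. The second series holds 4 libraries of MII oocytes at 0 h, 4 of untreated control embryos and 4 of embryos kept in alpha-amanitin, an inhibitor of RNA polymerase II, at 100 µg/ml, likewise for 10 h but begun 1 h after mixing. All embryos carry a labelled age of 10 h, which is less than the stated start plus duration of either treatment. In what follows the small molecule is named the c-Myc inhibitor, while sample titles and plots carry its code name. The sources used here do not give its dose, the vehicle of the controls or the number of embryos per library, and separate females or cultures are not named, so p-values measure the spread between libraries, which may be technical.

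Solute carriers are membrane proteins that move amino acids, sugars, vitamins, metals, ions, nucleotides and metabolites across the plasma membrane and the membranes of organelles. The mouse egg stores transcripts for its first hours of development. Carriers of this stage are known for zinc uptake during oocyte maturation, for glycine uptake that sets cell volume after fertilisation, and for exchange of protons, bicarbonate and chloride that holds internal pH.

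Library totals ran from 20566278 to 27266040 counts in the first series and from 5371602 to 31540627 in the second, where alpha-amanitin replicate 3 was the shallowest and had 10 of the 73 genes at 0. The 5 groups differed in their spread: the median coefficient of variation of the 73 genes was 18.6% in oocytes, 35.3% in the second series' controls, 40.7% under alpha-amanitin, 21.0% in the first series' controls and 18.3% under the c-Myc inhibitor. Oocyte markers were abundant as a sum over 13 genes in every group, though some single genes of the list were low. The sum was 10594 to 11478 CPM in oocytes. In the first series it was 4848 to 7176 CPM in controls and 8008 to 10010 CPM under the c-Myc inhibitor. In the second series it was 4985 to 6496 CPM in controls and 4883 to 8007 CPM under alpha-amanitin. Of cumulus and granulosa cell markers, 17 genes summed to 16.97 to 66.6 CPM in the first series' controls and 22.6 to 45.6 CPM under the c-Myc inhibitor. The sum was 42.6 to 103 CPM in oocytes, 14.8 to 96.3 CPM in the second series' controls and 33.3 to 69.1 CPM under alpha-amanitin. Tnfaip6 and Inhbb had a count in oocytes only (means 3.96 and 0.175 CPM). Vcan (15.4 CPM), Ptgs2 (3.75 CPM) and Kitl were also highest in oocytes, and the list's other genes in an embryo group. Of that list Cyp19a1 had a count in all 26 libraries, with group means of 11.2 to 17.1 CPM, and Col4a1 and Kitl had one in 25, with group means of 8.95 to 25.9 and 3.47 to 12.2 CPM. Of 12 sperm and spermatid markers, Tnp1, Tnp2, Smcp and Gapdhs were at 0 in all 26 libraries, while Prm2 had a count in 23, with group means of 5.77 to 11.2 CPM and the highest in oocytes. The list's sum (334 to 556 CPM under the c-Myc inhibitor, 264 to 367 CPM in its controls) came mostly from Odf2, a centrosomal gene as well as a sperm tail gene.

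Levels between genes were compared per kilobase (kb) of exon. Slc45a3, a member of the sugar transporter-like family SLC45, stood highest at 177 CPM per kb, followed by the zinc importers Slc39a6 (104 CPM per kb) and Slc39a10 (92.9 CPM per kb). Slc25a48, a mitochondrial carrier, had 70.5 CPM per kb and Slc30a3, a zinc exporter into vesicles, 65.9 CPM per kb. Slc4a1ap, which is named after the anion exchanger it binds and is no carrier itself, had 59.1 CPM per kb. The glycine transporter Slc6a9 had 44.1 CPM per kb, the mitochondrial ornithine carrier Slc25a15 42.1 CPM per kb, the ascorbate transporter Slc23a2 40.6 CPM per kb and the organic anion transporter Slco3a1 31.8 CPM per kb. The median of the 73 was 9.92 CPM per kb and the lowest, the sulfate transporter Slc26a2, had 2.32 CPM per kb. Exons of Slc6a9 overlap those of B4galt2 on the other strand, which averaged 51.3 CPM, and exons of Slc4a1ap overlap those of Supt7l, at 58.5 CPM, so both values are uncertain where counting ignored strand.

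Some close relatives of abundant carriers were near the floor. The second ascorbate transporter, Slc23a1, averaged 0.0243 CPM over all libraries. The glucose transporter Slc2a1 was a member, while Slc2a3 and Slc2a8 averaged 0.16 and 0.187 CPM. Of amino acid transporters from different families, Slc7a5 was a member and Slc38a2, a neutral amino acid transporter, averaged 0.085 CPM.

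Embryos given the c-Myc inhibitor held more RNA of many carriers than their controls. Of the 73 genes, 21 were higher and 3 lower, 28.8% and 4.11%, where 6.82% of all 13003 genes tested were higher and 4.08% lower (edgeR quasi-likelihood test, Benjamini-Hochberg adjusted p below 0.05). Here and in the comparisons below, the genes tested were not limited to 20 CPM as the 73 were, so the shares are not matched for level. The median log2 fold change of the 73 was 0.26, beside -0.00 over all genes, and 54 of the 73 were above 0. Of the 58 carriers with a mean of at least 20 CPM in every group, 15 rose and 3 fell. The 6 other risen genes, Slc12a7, Slc30a5, Slc30a4, Slc12a5, Slc25a38 and Slc35a1, were below 20 CPM in at least 1 group, so the choice of members by mean level is not independent of their rise. Carriers of vitamins and choline, of zinc and of potassium and chloride made up the largest changes, led by Slc30a4, Slc44a2, Slc44a1 and Slc23a2. The 73 genes together took 7358 to 7707 CPM in the 7 treated libraries and 5551 to 6154 CPM in the 7 controls. Without the 3 most abundant, Slc45a3, Slc39a10 and Slc39a6, the sums were 5392 to 5813 and 4314 to 4678 CPM, so neither set of sums overlapped between the groups. CPM is a share of a library's counts, so for a rise, more copies of a transcript and less RNA from other genes cannot be told apart. For a fall, the same holds of fewer copies and more RNA from other genes. Of the 21 calls, 10 stood in 1 fit of all 5 groups, whose spread includes that of the second series. The calls lost there were those of Slc12a5, Slc20a1, Slc22a23, Slc25a32, Slc25a38, Slc25a44, Slc30a5, Slc35a1, Slc43a3, Slc4a7 and Slc6a6. Oocyte markers moved with the carriers: 7 of 13 were higher under the c-Myc inhibitor and 0 lower, and their part in the carriers' change was not tested.

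**Figure D1:**
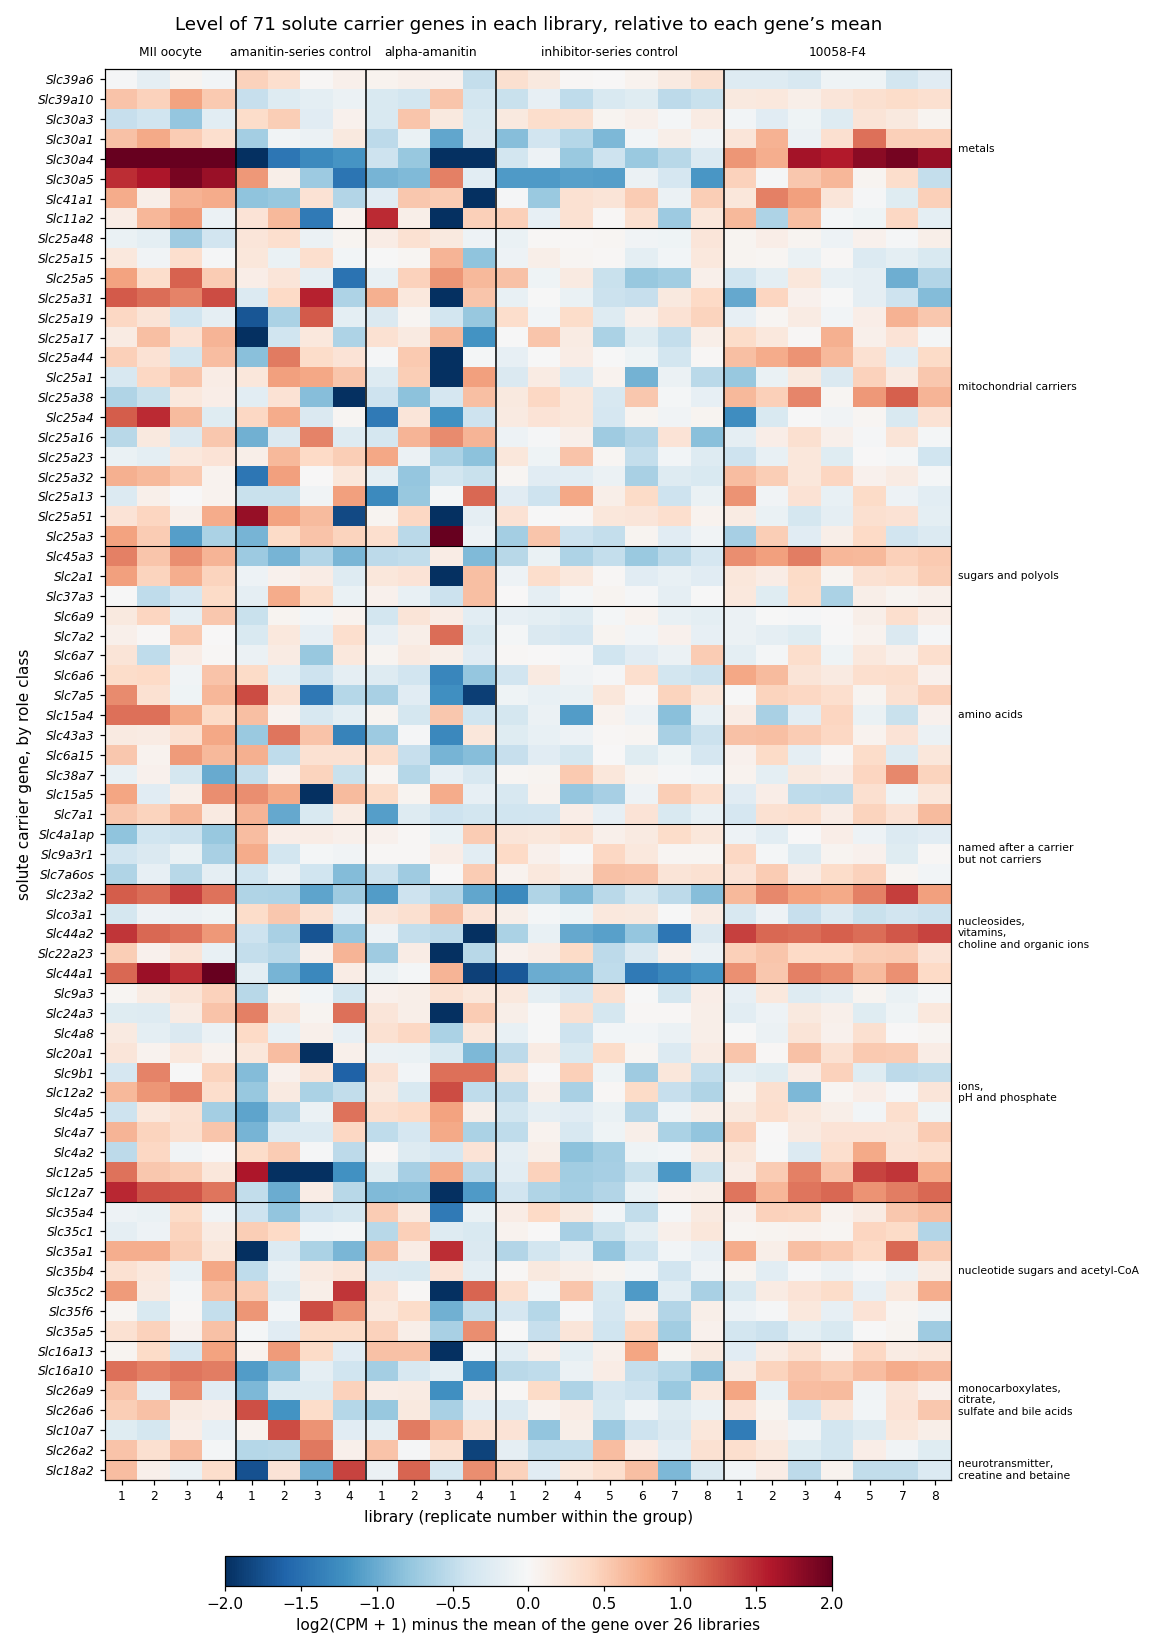
Level of 71 of the 73 genes in each of the 26 libraries, as log2 of CPM plus 1 minus the gene's mean over all libraries (colour, from -2 to 2), with genes grouped by the kind of solute carried and libraries by condition. For Slc23a2 and Slc44a2 every oocyte and inhibitor-treated column is above the gene's mean and every other column below it.

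Vitamin, choline and organic ion carriers changed most. Of 5 genes in this class 4 rose and 1 fell, with a median log2 fold change of 1.64. Slc23a2 takes up ascorbate, the reduced form of vitamin C, together with sodium. It is ENSMUSG00000027340, on chromosome 2 of GRCm38 at 132052496 to 132145108, minus strand. Slc23a2 has 2 promoter windows, and the one shown next is at its GENCODE start. The 300 bases around its annotated start, from 250 before to 50 after, are given because Slc23a2 is the gene of this class with the highest level, at chr2:132145059-132145358, minus strand, from RefSeq on GRCm38.p6, 5′ to 3′, with no base in capitals because the motif described further on is not in this window.
Slc23a2: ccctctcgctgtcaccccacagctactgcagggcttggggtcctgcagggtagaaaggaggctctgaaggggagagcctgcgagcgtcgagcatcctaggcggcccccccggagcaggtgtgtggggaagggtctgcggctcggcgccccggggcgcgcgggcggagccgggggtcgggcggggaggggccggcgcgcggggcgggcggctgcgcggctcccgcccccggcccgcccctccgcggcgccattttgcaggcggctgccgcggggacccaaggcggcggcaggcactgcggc

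Slc23a2 had 617, 575, 685 and 567 CPM in the 4 oocyte libraries. It had 175, 172, 127 and 162 CPM in the second series' controls and 122, 198, 176 and 129 CPM under alpha-amanitin. In the first series it ran from 109 to 208 CPM in controls (median 174) and from 416 to 697 CPM under the c-Myc inhibitor (median 468). The 4 oocyte libraries and the 7 libraries treated with the c-Myc inhibitor thus lay above all 15 other libraries, and the 3 remaining embryo groups overlapped each other. Group means were 611 ± 54.0 CPM in oocytes (SD, n = 4), 164 ± 33.0 in the first series' controls (n = 7) and 506.5 ± 93.1 under the c-Myc inhibitor (n = 7). Against its controls the gene rose by 1.64 on the log2 scale (SE 0.13, edgeR adjusted p = 6.78e-09), and the call stood in every setting tried. Leaving out 1 library at a time gave log2 fold changes of 1.54 to 1.71.

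Both choline transporter-like genes rose as well. Slc44a2 (ENSMUSG00000057193, chromosome 9 at 21320698 to 21355028, plus strand) had 203, 168, 161 and 137 CPM in oocytes. It ran from 27.1 to 67.7 CPM in the first series' controls (median 43.3) and from 164 to 196 CPM under the c-Myc inhibitor (median 173), with no overlap. Its log2 fold change under the c-Myc inhibitor was 1.98 (SE 0.15, edgeR adjusted p = 2.44e-09). Slc44a1 (ENSMUSG00000028412, chromosome 4 at 53440413 to 53622478, plus strand), the better known plasma membrane and mitochondrial choline transporter, had 13.5 to 31.7 CPM in controls (median 19.6) and 60.6 to 93.2 CPM under the c-Myc inhibitor (median 87.0). It rose by 1.95 (SE 0.17, edgeR adjusted p = 1.92e-08), while all 7 treated libraries stayed below the 4 oocyte libraries, at 103, 151, 129 and 191 CPM. Slc22a23, an organic ion transporter family gene of unassigned substrate, rose by 0.47 (edgeR adjusted p = 0.0151).

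The exception in the class was Slco3a1, an organic anion transporter, which fell by 0.41 on the log2 scale (SE 0.08, edgeR adjusted p = 0.00133). Its levels were 248 to 306 CPM in controls (median 286) and 191 to 247 CPM under the c-Myc inhibitor (median 202). The highest treated library lay just below the lowest control. In oocytes it had 206, 246, 244 and 250 CPM.

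**Figure D2:**
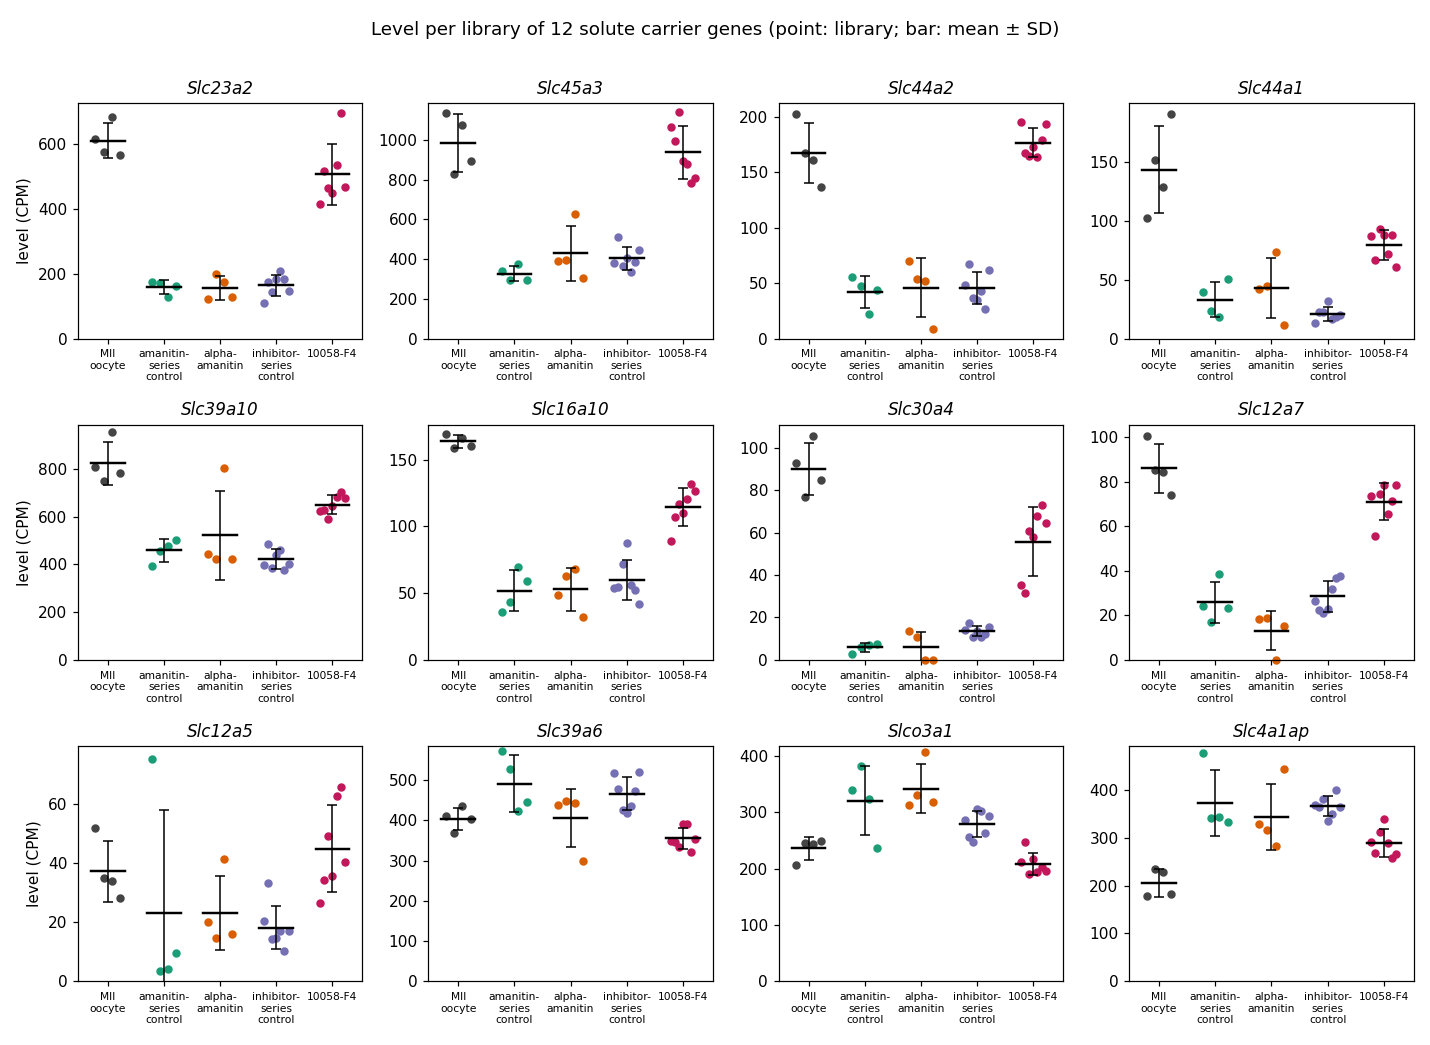
CPM in each library (points) with group mean and SD (bars) for 12 genes, 1 panel per gene, with the 5 groups on the horizontal axis. For Slc23a2 the oocyte and inhibitor-treated libraries lie between 416 and 697 CPM and all others between 109 and 208 CPM.

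Of 3 sugar and polyol carriers 1 rose. Slc45a3 (ENSMUSG00000026435, chromosome 1 at 131962967 to 131982969, plus strand) had 1135, 829, 1076 and 896 CPM in oocytes. The second series' controls had 339.9, 294, 375 and 297 CPM and the alpha-amanitin libraries 392, 397, 625.5 and 304 CPM. In the first series it ran from 336 to 511 CPM in controls (median 387) and from 783 to 1143 CPM under the c-Myc inhibitor (median 894), without overlap. It rose by 1.23 under the c-Myc inhibitor (SE 0.09, edgeR adjusted p = 2.44e-09). Slc2a1, the main glucose transporter of many cells, had group means of 37.8 CPM in controls and 46.5 CPM under the c-Myc inhibitor, and Slc37a3 of 42.3 and 44.8 CPM, and neither passed the test.

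Of 8 metal carriers 4 rose and 1 fell under the c-Myc inhibitor, and the 5 that changed all carry zinc. Slc39a10, which brings zinc into the cytoplasm, had 377 to 488 CPM in controls (median 400.5) and 591 to 704 CPM under the c-Myc inhibitor (median 644), and rose by 0.64 (SE 0.07, edgeR adjusted p = 1.33e-06). Its close relative Slc39a6, also a zinc importer and often its partner in a complex, went the other way. Slc39a6 had 418 to 519 CPM in controls (median 473) and 322 to 391 CPM under the c-Myc inhibitor (median 349), and fell by 0.38 (SE 0.07, edgeR adjusted p = 6.15e-04). Neither gene's ranges overlapped, and the oocyte libraries held 810.5, 751, 955 and 784 CPM of Slc39a10 and 410.4, 368, 435 and 403 CPM of Slc39a6.

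Of the genes that move zinc out of the cytoplasm, into vesicles or out of the cell, Slc30a4, Slc30a5 and Slc30a1 rose and Slc30a3 did not pass the test. Slc30a4, a vesicle transporter (ENSMUSG00000005802, chromosome 2 at 122681233 to 122702663, minus strand), had 92.6, 76.8, 105.5 and 84.8 CPM in oocytes and 2.90, 6.21, 7.12 and 7.68 CPM in the second series' controls. Under alpha-amanitin it had 13.7 and 10.6 CPM in replicates 1 and 2 and 0 counts in replicates 3 and 4. Its range was 10.7 to 17.2 CPM in the first series' controls (median 13.7) and 31.4 to 72.8 CPM under the c-Myc inhibitor (median 60.8). The 5 groups thus fell into high oocytes, intermediate treated embryos and low levels elsewhere, and its rise of 2.07 under the c-Myc inhibitor (SE 0.19, edgeR adjusted p = 5.48e-08) was the largest of the 73. Slc30a4 reached a mean of 20 CPM in 2 of the 5 groups, oocytes and treated embryos, so it was a member through the groups in which it was high. Slc30a5, a transporter into the secretory pathway, rose by 1.12 (edgeR adjusted p = 0.00105) from 14.6 to 31.0 CPM in controls to 24.1 to 54.4 CPM, with overlap. Slc30a1, the exporter at the cell surface, rose by 0.87 (edgeR adjusted p = 0.00243), also with overlapping ranges of 28.3 to 58.3 and 49.3 to 116.5 CPM. Slc30a3, the most abundant of the exporters per kb, had means of 205 and 181 CPM.

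Of 13 carriers of ions, protons, bicarbonate and phosphate 5 rose and 0 fell, with a median log2 fold change of 0.43. Of the 21 risen genes, 10 had every treated library above every control, and 2 of the 3 fallen genes had every treated library below. Separate ranges were not counted over all genes. Slc12a7, which moves potassium and chloride out of cells and takes part in volume regulation (ENSMUSG00000017756, chromosome 13 at 73733094 to 73816754, plus strand), had 101, 85.5, 84.4 and 74.0 CPM in oocytes. Controls of the first series had 21.3 to 37.9 CPM (median 26.5) and treated libraries 55.6 to 78.6 CPM (median 73.8), without overlap. It rose by 1.33 (SE 0.15, edgeR adjusted p = 7.88e-07). Slc12a5, a potassium and chloride exporter best known from neurons, rose by 1.33 as well (SE 0.23, edgeR adjusted p = 3.8e-04), with ranges of 10.2 to 33.2 and 26.5 to 65.6 CPM that overlapped. Slc12a2, which brings sodium, potassium and chloride in, had means of 63.4 and 73.8 CPM and did not pass the test.

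The sodium bicarbonate transporter Slc4a7 rose by 0.58 (edgeR adjusted p = 0.00708) and the phosphate transporter Slc20a1 by 0.43 (edgeR adjusted p = 0.0429). The call of Slc20a1 was lost without 1 library in 8 of 14 such fits. Slc4a8, a sodium-driven exchanger of chloride and bicarbonate, had means of 162 and 184 CPM and Slc4a2, a chloride and bicarbonate exchanger, 31.6 and 43.4 CPM, and neither passed.

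Carriers of amino acids changed less. Of 11 genes 2 rose and 0 fell, with a median log2 fold change of 0.23. Slc6a6, the taurine transporter, rose by 0.49 (edgeR adjusted p = 0.0161) and Slc43a3, a purine nucleobase transporter placed here by its family, by 0.58 (edgeR adjusted p = 0.0203). Slc6a9, the glycine transporter, had means of 205 CPM in controls and 236 CPM under the c-Myc inhibitor, and the cationic amino acid transporters Slc7a1 (59.9 and 79.9 CPM) and Slc7a2 (172 and 171 CPM) did not pass the test, nor did Slc7a5 (40.1 and 46.2 CPM). Slc16a10, which by family stands with the monocarboxylate carriers and moves aromatic amino acids, was the 1 gene of 6 in that class to rise. It had 169.5, 159, 166 and 161 CPM in oocytes, 42.2 to 87.4 CPM in the first series' controls (median 54.7) and 89.2 to 132 CPM under the c-Myc inhibitor (median 117). The lowest treated library was just above the highest control, and the log2 fold change was 0.95 (SE 0.14, edgeR adjusted p = 3.94e-05).

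Mitochondrial carriers were the largest class, and their median log2 fold change, 0.09, was the smallest in size of any class. Of the 16 genes 3 rose and 0 fell, which was not the lowest share called. The glycine carrier Slc25a38 rose by 0.62 (edgeR adjusted p = 0.0294), the branched-chain amino acid carrier Slc25a44 by 0.60 (edgeR adjusted p = 0.0106) and the folate and flavin carrier Slc25a32 by 0.56 (edgeR adjusted p = 0.00663). The Slc25a38 call was lost in 7 of the 14 fits that left out 1 library. Of the 2 most abundant, Slc25a48 had 214 to 277 CPM in controls and 219.5 to 259 CPM under the c-Myc inhibitor, and Slc25a15 had means of 234.5 and 216 CPM. The ADP and ATP carriers Slc25a4 (19.9 and 16.8 CPM), Slc25a5 (29.6 and 25.7 CPM) and Slc25a31 (22.8 and 20.5 CPM), the citrate carrier Slc25a1 (16.8 and 21.2 CPM) and the phosphate carrier Slc25a3 (17.4 and 18.8 CPM) did not pass. Of 7 genes placed by family with the carriers of nucleotide sugars and acetyl-CoA, not all of known substrate, 1 rose. Slc35a1, the carrier of CMP-sialic acid, went from 10.8 to 18.6 CPM in controls to 21.0 to 44.1 CPM (log2 fold change 1.01, edgeR adjusted p = 6.06e-04).

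The 3 genes named after a carrier without being one did not rise. Slc4a1ap, also known as kanadaptin, fell by 0.33 (SE 0.07, edgeR adjusted p = 0.0035) from 334 to 400.4 CPM in controls (median 364.5) to 257.5 to 339 CPM (median 289), ranges that overlapped. In 1 fit of all 5 groups this call was lost. Slc7a6os had means of 129 and 124 CPM and Slc9a3r1, a scaffold protein of membrane transporters, of 63.2 and 56.6 CPM. Slc18a2, the vesicle transporter of monoamines and the 1 gene of its class, had 22.2 and 17.8 CPM and did not pass.

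**Figure D3:**
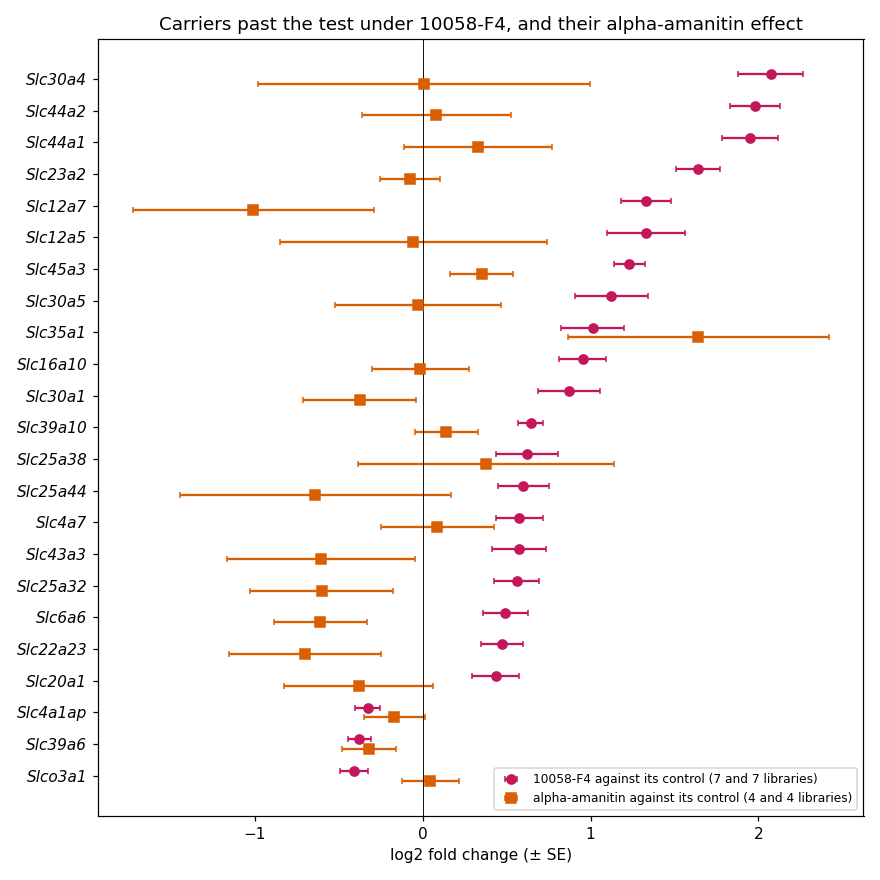
Log2 fold change with its standard error under the c-Myc inhibitor (circles) and under alpha-amanitin (squares), each against its own controls, for 23 of the 24 genes that passed the test under the c-Myc inhibitor. The circles run from 2.07 for Slc30a4 to -0.41 for Slco3a1, and none of the squares passed the test.

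The hexamer CACGTG, the core sequence to which c-Myc with Max is known to bind, was searched in the RefSeq promoters of GRCm38.p6, each 300 bases from 250 before to 50 after an annotated start. It reads the same on both strands. A promoter was found for 54 of the 73 genes, and 12 of the 54 had the hexamer (22.2%). By promoter, 13 of 73 had it (17.8%), beside 7.15% of 32851 promoters of all genes and 7.84% of 21263 promoters of protein-coding genes. Among genes with a promoter it was present in 4 of the 16 that rose under the c-Myc inhibitor and in 8 of the 38 others, and in 8.91% of 17492 protein-coding genes. A match is a description of the letters and not a binding site.

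Promoters of 3 genes that rose and hold the hexamer are shown to give its place, 5′ to 3′ on the gene's strand, with the hexamer in capitals: Slc12a7 at chr13:73763410-73763709, plus strand, where it begins 1 base before the window's start site, Slc12a5 at chr2:164967738-164968037, plus strand, at position -36, and Slc30a5 at chr13:100833378-100833677, minus strand, at position -61. The RefSeq start of Slc30a5 is the gene's start in the GENCODE annotation, while those printed for Slc12a7 and Slc12a5 lie 30566 and 7186 bases inside the GENCODE gene and are internal starts. Slc12a7 and Slc12a5 have 2 windows each, and Slc30a5 has 1. The window with the most matches was printed, and among equals the one nearest the GENCODE start, so these windows were chosen for holding the hexamer.
Slc12a7: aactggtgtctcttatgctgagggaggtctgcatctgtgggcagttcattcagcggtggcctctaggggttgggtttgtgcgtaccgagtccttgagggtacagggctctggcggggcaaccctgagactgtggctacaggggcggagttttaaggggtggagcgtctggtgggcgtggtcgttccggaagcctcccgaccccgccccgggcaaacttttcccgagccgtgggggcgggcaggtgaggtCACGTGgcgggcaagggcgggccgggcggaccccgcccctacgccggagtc
Slc12a5: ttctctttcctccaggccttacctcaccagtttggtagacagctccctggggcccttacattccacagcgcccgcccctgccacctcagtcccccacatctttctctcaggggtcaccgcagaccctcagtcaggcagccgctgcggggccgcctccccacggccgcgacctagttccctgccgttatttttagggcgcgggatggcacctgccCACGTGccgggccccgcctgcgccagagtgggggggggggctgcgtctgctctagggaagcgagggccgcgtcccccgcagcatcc
Slc30a5: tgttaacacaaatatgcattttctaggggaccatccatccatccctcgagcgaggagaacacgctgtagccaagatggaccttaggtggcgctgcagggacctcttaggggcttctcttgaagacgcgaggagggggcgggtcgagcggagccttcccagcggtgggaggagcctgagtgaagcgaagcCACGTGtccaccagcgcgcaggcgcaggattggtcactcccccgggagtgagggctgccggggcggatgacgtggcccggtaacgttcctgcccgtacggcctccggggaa

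Untreated embryos, of a labelled age of 10 h, were then compared with oocytes within the second series. Fertilisation, culture and time differ together in this comparison and cannot be told apart. Control embryos held less RNA of 6 of the 73 carriers and more of 1, 8.22% and 1.37%, where 1.78% of all 13133 genes tested were lower and 1.11% higher. The 6, with log2 fold changes, were Slc44a1 with -2.08 (SE 0.46, edgeR adjusted p = 0.0136), Slc44a2 with -1.94 (SE 0.46, edgeR adjusted p = 0.0221), Slc23a2 with -1.90 (SE 0.19, edgeR adjusted p = 3.86e-06), Slc16a10 with -1.62 (SE 0.30, edgeR adjusted p = 0.00322), Slc45a3 with -1.55 (SE 0.19, edgeR adjusted p = 6.4e-05) and Slc39a10 with -0.81 (SE 0.19, edgeR adjusted p = 0.0212). In each of them all 4 embryo libraries lay below all 4 oocyte libraries. The gene that was higher was Slc4a1ap, with 178, 234, 229 and 182 CPM in oocytes and 477, 341, 342 and 332 CPM in control embryos (log2 fold change 0.90, SE 0.18, edgeR adjusted p = 0.00755). The median over the 73 was -0.18, beside -0.03 over all genes. Leaving out 1 library at a time lost the call of Slc44a2 in 6 of 8 fits, of Slc39a10 in 5 and of Slc44a1 in 2. Without the second series' control replicate 2 the lower calls were 3, without Slc44a1, Slc44a2 and Slc39a10, and 1 fit of all 5 groups gave 10 lower and 5 higher.

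Several carriers with separate ranges did not pass in this wider-spread series. Slc30a4, given above, differed by -3.87 on the log2 scale (SE 1.11, edgeR adjusted p = 0.0689), Slc30a5 went from 95.6 to 129 CPM in oocytes to 11.7 to 62.8 CPM in control embryos, and Slc12a7 went from 74.0 to 101 CPM to 16.9 to 38.5 CPM. In all, 15 of the 73 had every control embryo library below every oocyte library and 2 had the opposite. The share of all genes with separate ranges was not counted, so these counts are a description only. Oocyte markers again moved with the carriers: 7 of 13 were lower in control embryos, beside 1.78% of all genes tested, and their part was not tested.

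Embryos kept in alpha-amanitin, set against the same oocytes, held less of 4 carriers and more of 1, 5.48% and 1.37%, where 1.27% of all genes tested were lower and 0.442% higher. On the log2 scale Slc23a2 differed by -1.97 (SE 0.19, edgeR adjusted p = 2.66e-06), Slc44a2 by -1.86 (SE 0.46, edgeR adjusted p = 0.0427), Slc16a10 by -1.63 (SE 0.30, edgeR adjusted p = 0.00416) and Slc45a3 by -1.20 (SE 0.19, edgeR adjusted p = 0.00113). Slc4a1ap was higher by 0.73 (SE 0.18, edgeR adjusted p = 0.0448). The comparison shares its oocyte libraries with the one before it. Without the shallow alpha-amanitin replicate 3, 8 carriers were lower, the call of Slc44a2 was lost in 5 of 8 fits that left out 1 library, and without any 1 of 7 other libraries the call of Slc4a1ap was lost.

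The larger control group of the first series, set against the same oocytes in 1 fit of all 26 libraries, had 13 carriers lower and 4 higher, 17.8% and 5.48%, where 4.36% of 16319 genes were lower and 4.26% higher. Series and stage cannot be told apart in this comparison. Lowest were Slc44a1 (log2 fold change -2.73), Slc30a4 (-2.69), Slc30a5 (-2.49), Slc23a2 (-1.83), Slc44a2 (-1.82) and Slc12a7 (-1.53). They were followed by Slc16a10 (-1.39), Slc45a3 (-1.22), the lysosomal transporter of histidine and peptides Slc15a4 (-1.15), Slc39a10 (-0.91), Slc12a2 (-0.88), Slc30a1 (-0.85) and the neutral amino acid transporter Slc6a15 (-0.74). In the 11 fits that left out 1 library, the call of Slc6a15 was kept in 2, of Slc12a2 in 3, of Slc30a1 in 9 and of Slc12a7 in 10, and without the filter on low counts those of Slc6a15 and Slc30a1 were lost. The higher genes were Slc4a1ap (0.89), Slc7a6os (0.74), Slc30a3 (0.67) and Slc25a48 (0.41). The first series' 7 control libraries all lay above the 4 oocyte libraries in each of those 4 genes, and the call was kept in 9 of the 11 such fits for Slc7a6os and in 8 for Slc25a48, which also lost it without the filter.

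The control groups of the series, both untreated embryos of 1 labelled age, differed in 2 of the 73 genes. Slc35f6, a carrier family gene of little known substrate, was lower in the first series by 1.05 on the log2 scale (edgeR adjusted p = 0.0116), with 29.9 to 49.6 CPM against 84.7, 43.9, 114.6 and 86.8 CPM. Slc7a6os was higher by 0.75 (edgeR adjusted p = 0.0267). That is 1.37% of the carriers in each direction, where 2.21% of all genes tested were higher and 1.32% lower. The call of Slc35f6 was lost without the second series' control replicate 3, and that of Slc7a6os in 5 of the 11 fits that left out 1 library. Slc23a2 had a log2 fold change of 0.06 between the control groups and Slc45a3 of 0.32, and neither passed the test.

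Alpha-amanitin, against the controls of its own series, changed none of the 73 carriers past the threshold in either edgeR or DESeq2. Over all 13133 genes tested 0.0228% were higher and 0.00761% lower. At an unadjusted p below 0.05 edgeR gave 6 of the 73 carriers, beside 986 of all genes tested (7.51%). DESeq2 called 321 genes higher and 111 lower over all genes. The median log2 fold change of the 73 was -0.12, beside -0.01 over all genes. Among the smallest p values were those of Slc35f6 (log2 fold change -1.02, SE 0.39, edgeR adjusted p = 0.524) and Slc6a6 (-0.61). Slc23a2 had -0.07 (SE 0.18, edgeR adjusted p = 0.998) and Slc45a3 0.35 (SE 0.19, edgeR adjusted p = 0.763). A miss of the threshold does not show that levels were alike. Ranges overlapped in 72 of the 73 genes, and the share over all genes was not counted.

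The effects of the inhibitors, each taken against its own controls, were then compared directly. The difference was above 0 in 55 of the 73, with a median of 0.40 beside -0.03 over all genes, and 4 carriers passed the test with a larger effect of the c-Myc inhibitor (5.48%), where 0.678% of all 15790 genes tested were higher and 0.367% lower. Among them were Slc23a2 (difference of log2 fold changes 1.72, SE 0.24, edgeR adjusted p = 1.2e-04), Slc45a3 (0.89, SE 0.21, edgeR adjusted p = 0.0284) and Slc44a2 (1.90, SE 0.47, edgeR adjusted p = 0.0415). The call of Slc23a2 stood without any 1 of the 22 libraries, while Slc44a2 lost it in 15 and Slc45a3 in 10 of those fits. Drug, start of treatment and series differ together between the effects and cannot be told apart.

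The rise under the c-Myc inhibitor and the difference between control embryo and oocyte come from separate libraries and could be set side by side. All 6 carriers that were lower in control embryos than in oocytes rose under the c-Myc inhibitor, which is 100% of those 6 and 28.6% of the 21 that rose. Over all genes 159 were in both sets, 67.9% of the 234 lower and 18% of the 883 higher genes tested in both. Of the 21 risen carriers 20 had a log2 fold change below 0 between control embryo and oocyte, 95.2%, beside 86.9% of risen genes in general, and the 3 fallen carriers all had one above 0. Across the 73 genes, which are not independent replicates, Pearson's r between the 2 log2 fold changes was -0.777 and Spearman's rho -0.573, beside -0.201 and -0.232 across 12280 genes. The 73 include Slc30a4, a member through the oocytes and treated embryos in which it was high. Of the other risen carriers, Slc30a5, Slc12a5, Slc25a38 and Slc35a1 also had a control group mean below 20 CPM. The places of these genes here are thus not independent of the choice of members. No coefficient was computed over only the carriers with at least 20 CPM in every group. The 12280 genes were not limited to 20 CPM, so the coefficients are not matched for level.

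**Figure D4:**
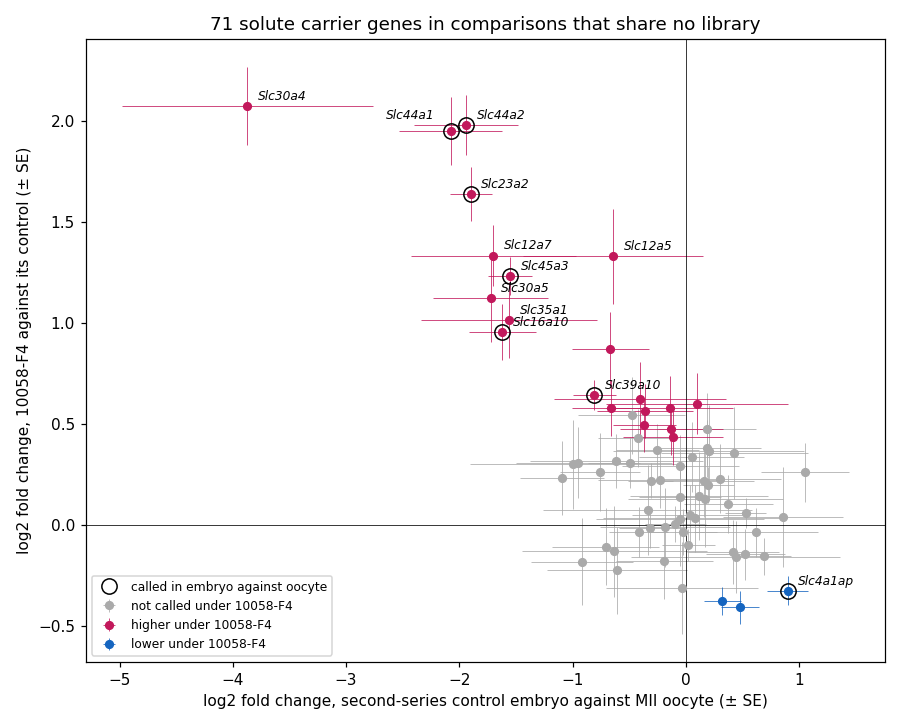
Log2 fold change with its standard error under the c-Myc inhibitor (vertical axis) against that of the second series' control embryos over oocytes (horizontal axis) for 71 of the 73 genes, coloured by call under the inhibitor and ringed where the embryo differed from the oocyte. The 6 ringed genes at the upper left are Slc44a1, Slc44a2, Slc23a2, Slc45a3, Slc16a10 and Slc39a10, and the ringed gene at the lower right is Slc4a1ap.

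Set beside the oocyte mean, treated embryos held 82.9% of the oocyte level of Slc23a2, 95.3% of Slc45a3, 105.8% of Slc44a2, 55.3% of Slc44a1, 78.9% of Slc39a10, 70.0% of Slc16a10, 62.0% of Slc30a4 and 82.6% of Slc12a7. Oocytes and treated embryos belong to different series, so this is a description of means with no test. Ranges of the treated embryos lay below those of the oocytes in 9 of the 73 genes and above them in 4, Slc4a1ap, Slc7a6os and Slc25a48 among these. In the other 60 they overlapped, Slc23a2 and Slc45a3 among them. Such ranges were not counted over all genes.

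Genes that carriers depend on were read from a list of subunits, pumps and volume regulators. Of 21 measured, 7 rose with the c-Myc inhibitor and 1 fell, with a median log2 fold change of -0.04. Over all genes tested 6.82% were higher and 4.08% lower. Among those that rose, Atp1b3, a subunit of the sodium pump whose gradient many carriers use, had a log2 fold change of 1.15. The chaperones of monocarboxylate carriers Nptn and Bsg rose by 1.28 and 0.68, the volume-regulated anion channel subunits Lrrc8b and Lrrc8d by 0.98 and 0.76, and the kinase Wnk2, of a family that controls cation and chloride carriers, by 1.11. Cab39l, an adaptor of kinases, fell by 0.36. Between control embryo and oocyte 3 of the 21 were lower, among them Lrrc8b with a log2 fold change of -1.34 and Wnk2 with -0.69, and 0 were higher. In that comparison 1.78% of all genes tested were lower and 1.11% higher. Of 32 measured carriers that bear other names, 2 rose under the c-Myc inhibitor, a share near the 6.82% of all genes, and 0 fell. Tmem104 rose by 0.62 and Tusc3 by 0.50, and the median of the list was 0.23. None of 31 passed between control embryo and oocyte.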

How the data were processed

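Libraries were made from directly lysed cells with a kit for very small amounts of total RNA, per the labels' protocols. The deposited table holds raw counts, whole numbers for 55401 Ensembl gene IDs in each of 26 libraries. The submitters' processing notes name cutadapt 1.7.1, STAR 2.5.0a and the GRCm38 build. The sources used here do not give the counting program, its strand setting or its annotation. A GENCODE vM21 symbol was found for 55141 IDs.

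CPM used raw library totals. Tests were edgeR 4.0.16 quasi-likelihood F tests in R 4.3.3 on all genes kept by filterByExpr (minimum count 10, minimum total 15), with TMM scaling (factors 0.95 to 1.05) and Benjamini-Hochberg adjustment over all genes tested, at 0.05. The c-Myc inhibitor was fitted on its 14 libraries, the second series on its 12, the difference of effects on 22 embryo libraries and the comparisons across series on 26. SE is the log2 fold change divided by the square root of F. Code was tested on simulated data.

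The members, role classes, gene lists and the rule for named genes were chosen with earlier results of these data known. The rule names up to 12 called genes per direction and comparison, the 3 smallest p where none was called, the 10 highest per kb, the highest of each class, the genes at the threshold and a fixed list of known carriers. Slc7a1, Slc7a2, Slc4a8, Slc37a3, Slc25a31, Slc26a2, Slc9a3r1 and the called genes past the largest 12 were added after their values were seen. Alternatives were DESeq2 1.42.0, other scaling, no filter, other groups in the fit, a replicate block and leaving out each library. Promoters came from RefSeq. Counts and medians cover all genes of a list, while a few of those genes are not reported here by name or in figures.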

Additional observations from a re-analysis of the deposited data

Results flagged for a closer look

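In 185 groups of 4 or 7 libraries (37 named genes in 5 groups), 11 had 1 library far from the others by Dixon's test, 5.95%, where chance gives about 1 in 20. Under the c-Myc inhibitor, Slc23a2 stood at 697 CPM in replicate 7 (others 416 to 535) and Slc12a2 at 38.6 CPM in replicate 3 (71.2 to 90.5). In the first series' controls Slc16a13 stood at 55.1 CPM in replicate 6 (27.0 to 36.5).

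In the second series' controls Slc12a5 had 75.3 CPM in replicate 1 (others 3.46 to 9.73), Slc4a1ap 477 CPM in replicate 1 (332 to 342) and Slc35a4 38.3 CPM in replicate 2 (49.9 to 52.2). Alpha-amanitin replicate 3, the shallowest library, had 802 CPM of Slc39a10 (422 to 442) and 143 CPM of Slc4a7 (53.9 to 66.3), and replicate 4 had 299 CPM of Slc39a6 (437 to 447). Among oocytes Slco3a1 had 206 CPM in replicate 1 (243 to 250) and Slc35a4 87.8 CPM in replicate 3 (61.3 to 63.8).

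The effect of the c-Myc inhibitor exceeded that of alpha-amanitin, by the test of the difference, for Slc44a2 by 1.9, for Slc23a2 by 1.72 and for Slc45a3 by 0.886 on the log2 scale.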

How the results depend on the processing

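Counts of carriers past the threshold moved by over 1.5 times as follows, and the cause was not tested. In 1 fit of all 5 groups, carriers higher under the c-Myc inhibitor went from 21 to 10, those lower in control embryos than in oocytes from 6 to 10 and higher from 1 to 5, and those lower under alpha-amanitin than in oocytes from 4 to 16 and higher from 1 to 3. DESeq2 gave 13 in place of 4 for the difference of effects, 3 higher in control embryos, and 3 higher and 11 lower in alpha-amanitin embryos than in oocytes. Without a filter the difference of effects gave 7 and alpha-amanitin embryos 9 lower. Fitting the first series' controls with the oocytes only gave 7 higher and 23 lower in place of 4 and 13. Same-numbered libraries did not deviate together (r of -0.0561 to 0.0572 over 6 pairs and -0.0656 to 0.0428 over 12). Whether they shared a culture or batch was not tested. The replicate block gave 18 carriers higher with the c-Myc inhibitor, among them 16 of the 21 called without it, and 3 lower. It lost the calls of Slc20a1, Slc22a23, Slc25a38, Slc25a44 and Slc43a3. It gave 2 for the difference of effects (the calls of Slc44a2 and Slc45a3 were among those lost) and 0 higher in alpha-amanitin embryos. Leaving out 1 library gave 19 to 22 higher under the c-Myc inhibitor, 2 to 7 for the difference of effects (7 without alpha-amanitin replicate 3, and 2 without inhibitor-treated replicate 1 or 3 or first-series control replicate 1, 4 or 7), 0 to 1 higher and 3 to 8 lower in alpha-amanitin embryos than in oocytes, 3 to 6 lower in second-series controls, 2 to 4 higher (2 without oocyte replicate 3) and 9 to 13 lower in first-series controls, and 0 to 1 in each direction between controls. Between controls the call of Slc7a6os was lost without second-series control replicate 1, 3 or 4 or first-series control replicate 5 or 6, and between first-series controls and oocytes without oocyte replicate 1 or 3. Slc23a2 changed sign near 0, running under alpha-amanitin from -0.215 to 0.0122 (0.0122 and 0.00116 without its replicates 1 and 4) and between controls from -0.0504 to 0.152 (-0.0504 without second-series control replicate 3, -0.0194 without first-series control replicate 6). Depth limits low genes most in alpha-amanitin replicate 3, where 3 counts, the limit that a count of 0 allows, are 0.558 CPM.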
